A study of Arabidopsis thaliana with 6 samples.

Results

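The group described here is 16 nuclear-encoded probe sets, 1 each for 16 genes, out of 22746 probe sets tested on 6 Affymetrix arrays of Arabidopsis thaliana seedlings. They were chosen by name: a probe set listed for a single locus, numbered above the organelle-encoded probe sets of this array, whose gene symbol begins with 1 of 16 prefixes used for photosystem, antenna, electron transport, Rubisco and thylakoid protease genes. The arrays hold 3 estradiol samples and 3 mock samples, labelled as biological replicates. All seedlings were of the Col-0 ecotype and of the T3 generation of a stable transgenic line, 14 days old, and were harvested after 2 h. All of them, mock included, carry the constitutively expressed chimeric factor XVE and the RPXΔC transgene behind a LexA promoter, which XVE drives once estradiol lets it into the nucleus. The estradiol group received 10 µM estradiol. The mock group received ethanol by one label and medium without inducer by another, so the vehicle is not settled. Seedlings lacking the transgene were not part of these 6 samples, so estradiol and RPXΔC cannot be told apart. How many independent lines were used, and how many seedlings were pooled per sample, is not stated in the labels.

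In the chloroplast, light-harvesting antenna proteins pass excitation to photosystem II, which splits water, and electrons then flow through the cytochrome b6f complex to photosystem I and ferredoxin. The NDH complex and the PGR5/PGRL1 pathway return electrons from ferredoxin to the plastoquinone pool, a cycle that adds to the proton gradient without net reduction of NADP. Rubisco activase keeps the carbon-fixing enzyme Rubisco in its active form. The core reaction-centre proteins are made from chloroplast genes, while the antenna, many small subunits and the assembly factors come from the nucleus, and transcripts of these nuclear genes are known to respond to light, the circadian clock and signals from the plastid.

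Of the 16 genes, 13 encode thylakoid or carbon-fixation proteins and 3 share a prefix but are known for other functions: FDH (AT5G14780), a mitochondrial formate dehydrogenase, FD (AT4G35900), a bZIP factor of flowering, and STN1 (AT1G07130), a telomere-capping protein. The label therefore holds for 13 of 16. The prefixes CAB, PPL, PNS, PET, ELIP, RBCS and FTSH found no such probe set, nor did PSBP, so the major antenna proteins, cytochrome b6f, plastocyanin and the Rubisco small subunit were not analysed here. The 3 antenna genes present are the CP29 genes of the photosystem II antenna.

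None of the 16 genes was called higher or lower after estradiol, and for each of them the 95% interval of the difference stayed within a 2-fold change on the scale used. With limma and an adjusted p under 0.05 (Benjamini-Hochberg, over all tested probe sets), 0 of 16 were higher, where 0.114% of all tested probe sets were, and 0 of 16 were lower, where 0% of all were. At an unadjusted limma p under 0.05, 1 of 16 was lower (background 4.58%) and 0 of 16 were higher (background 3.96%). Differences were taken as estradiol minus mock of log2(intensity + 16). The 95% interval lay between -1 and 1 for all 16 genes, as it did for 95.7% of all tested probe sets. The bounds farthest from 0 were -0.84 for PSAE-1 and 0.44 for FDH. FD and STN1 had intensities near or below the 16 that was added, so their intervals do not bound a 2-fold change of intensity. With 1 added in place of 16, 15 of the 16 intervals lay between -1 and 1. The difference was negative for 13 of 16 genes, against 57.1% of all tested probe sets, and its median was -0.17 against -0.03 over all tested. For the 13 photosynthesis genes alone the median was -0.20, with 11 negative. The intensity was in arbitrary units per probe set, so levels are not compared between genes, and in whole seedlings fewer green cells and less RNA per cell cannot be told apart.

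**Figure D1:**
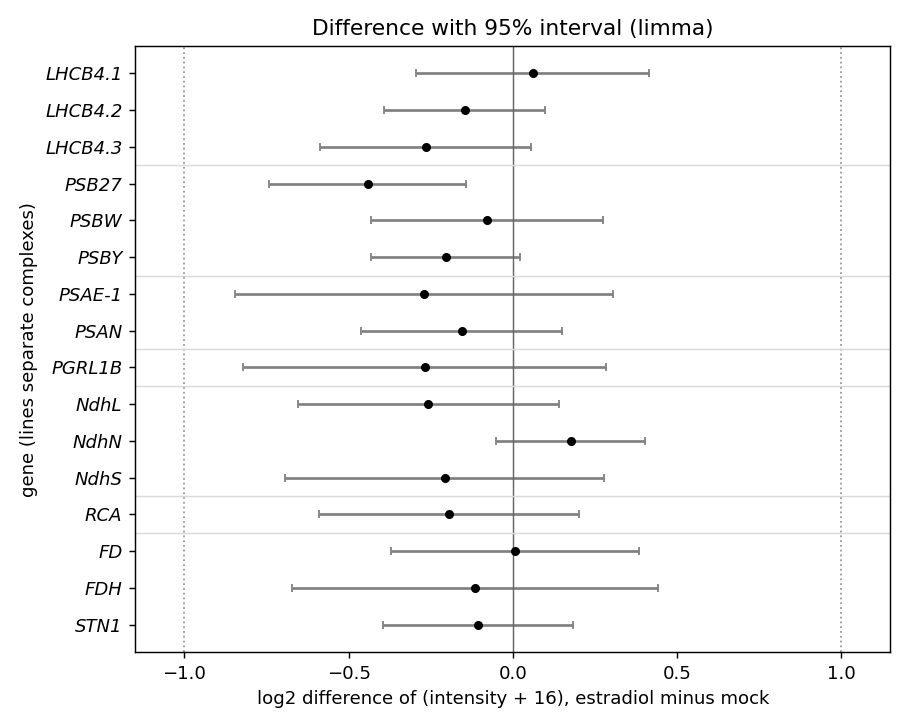
Log2 difference of (intensity + 16), estradiol minus mock (x axis), for each of the 16 genes (y axis, grouped by complex); points are limma estimates over 3 arrays a group and bars their 95% intervals, with dotted lines at -1 and 1. All 16 intervals lie between the dotted lines, and that of PSB27 alone does not reach 0 (-0.74 to -0.14).

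The arrays differed among themselves in the counts of bright probe sets, in control signals and in tissue markers. The median intensity lay between 35.7 and 38.7 and the trimmed mean was 100 on all 6. Estradiol replicate 2 held fewer very bright probe sets, with 28 above an intensity of 3000, against 40 and 71 on the other estradiol arrays and 56 to 69 on the mock arrays. Estradiol replicate 3 had the highest 3'/5' signal ratio of the actin control, a measure of RNA integrity, at 15.2, against 4.37 and 5.98 on the other estradiol arrays and 4.55 to 6.11 on the mock arrays. The 25S rRNA control gave 918 to 1323 with estradiol, against 302, 286 and 1534 in mock replicates 1, 2 and 3. Of the root markers, 3 of 12 were measured, all with negative differences (-0.27, -0.08 and -0.26), and their summed intensity was 1682 to 2612 on the estradiol arrays, against 2504 to 2685 on the mock arrays. Nearly all of that sum was PYK10, with 2219, 1634 and 2548 on the estradiol arrays, against 2541, 2445 and 2606 on the mock arrays. The median difference of these 3 markers was -0.26, and -0.09 without estradiol replicate 2. Of the guard cell markers, 2 of 4 were measured. FMA (FAMA) gave 42.5, 45.8 and 22.55 on the estradiol arrays, against 43.7, 36.2 and 41.7 on the mock arrays (difference -0.12). MUTE lay below 16 on all 6 arrays, from 2.58 to 14.5 (difference 0.03), so whether it exceeds background is not known here. No phloem or epidermis marker had a probe set that carries its name alone. Whether probe sets with no gene listed include such markers is not known here. The part of these array and tissue differences in the results was not tested.

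The CP29 proteins LHCB4.1, LHCB4.2 and LHCB4.3 connect the major antenna to the photosystem II core. LHCB4.1 (AT5G01530) had intensities of 2937, 2502 and 3274 on the estradiol arrays, against 2514, 2599 and 3248 on the mock arrays. The groups overlapped fully, with replicate 3 the highest array of each. The log2 difference was 0.06 ± 0.15 (SE, n = 3 each; limma adjusted p = 0.943). LHCB4.2 (AT3G08940) gave 2511, 2291 and 2163 with estradiol and 2451, 2557 and 2699 in mock. Its lowest mock array lay below its highest estradiol array, and the difference was -0.15 ± 0.10 (limma adjusted p = 0.738). LHCB4.3 (AT2G40100), an isoform known to be regulated apart from the other two, gave 74.9, 76.5 and 83.0 with estradiol and 102, 78.9 and 113 in mock. Only mock replicate 2 reached into the estradiol range, and the difference of -0.27 ± 0.14 did not pass (limma adjusted p = 0.647).

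PSB27, PSBY and PSBW stand for photosystem II itself. PSB27 (AT1G03600) encodes a lumenal factor that assists repair and assembly of photosystem II. It had intensities of 2115, 2365 and 1886 after estradiol, mean 2122 ± 240 (SD, n = 3), and 2765, 3201 and 2687 on the mock arrays, mean 2884 ± 277 (SD, n = 3). All 3 estradiol values lay below all 3 mock values, and the ratio of the means was 0.736. This was the most negative difference among the 16 genes, -0.44 ± 0.13 (SE), and the 1 of 16 that passed before adjustment, but it did not pass over all probe sets (limma adjusted p = 0.436). PSBY (AT1G67740), which encodes small membrane proteins of photosystem II, gave 2764, 2677 and 2899 with estradiol and 3404, 3105 and 3109 in mock. Its groups did not overlap either, with tight replicates, and the difference was -0.20 ± 0.10 (limma adjusted p = 0.628). PSBW (AT2G30570), a small membrane subunit, gave 1858, 2046 and 2240 with estradiol and 1785, 2276 and 2465 in mock, with the mock arrays spanning the estradiol range (-0.08 ± 0.15, limma adjusted p = 0.922).

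The counts of genes without overlap were small in both directions. All estradiol values lay below all mock values in 2 of 16 genes, PSB27 and PSBY, where 7.74% of all tested probe sets did so. They lay above in 1 of 16, NdhN, where 5.79% of all did. Exact permutation of 3 against 3 arrays cannot give a two-sided p below 0.1.

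**Figure D2:**
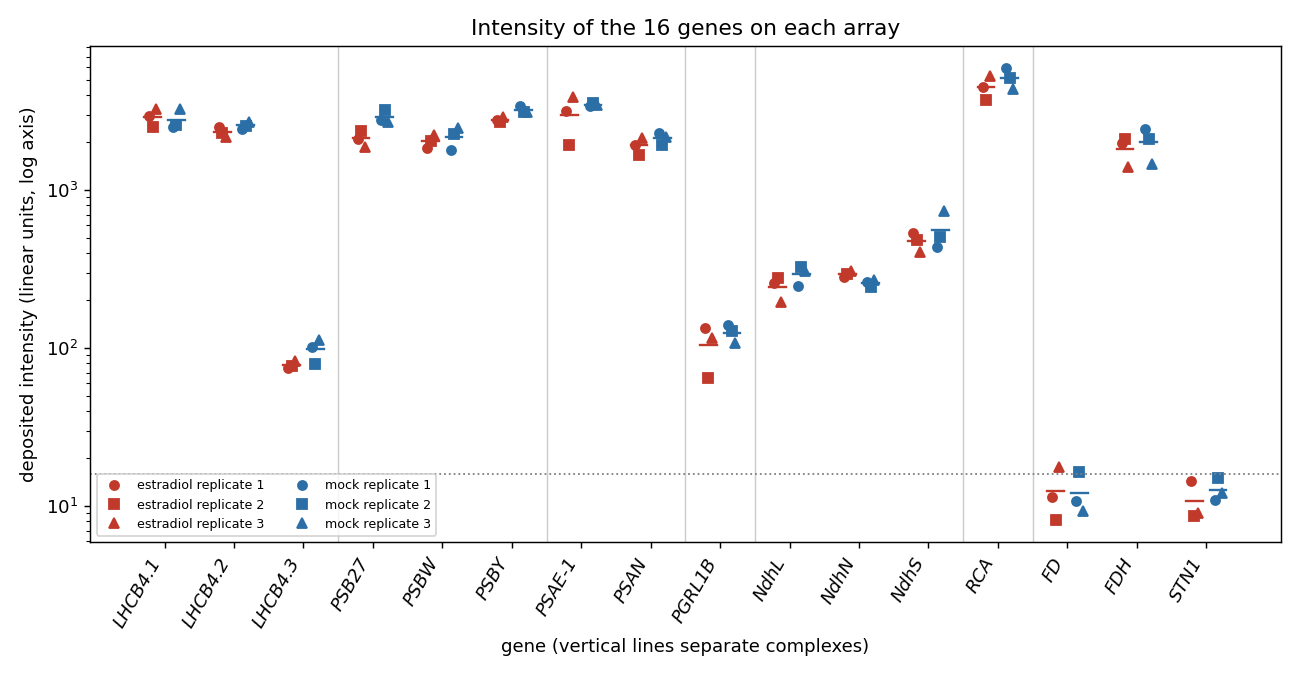
Deposited intensity on a log axis (y) for the 16 genes (x, vertical lines between complexes), with estradiol arrays in red left of mock arrays in blue, marker shape for the replicate number, short bars for group means and a dotted line at the pseudocount of 16. The groups stand apart in PSB27 (1886 to 2365 with estradiol and 2687 to 3201 in mock), PSBY and NdhN, and overlap in the other genes.

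Photosystem I was represented by a stromal and a lumenal subunit. PSAE-1 (AT4G28750), which helps dock ferredoxin on the stromal side, gave 3146, 1934 and 3895 on the estradiol arrays, against 3412, 3532 and 3453 on the mock arrays. The mock arrays agreed closely, whereas estradiol replicates 1 and 2 lay below them and replicate 3 above. The difference was -0.27 ± 0.24 (SE; limma adjusted p = 0.798), and it was 0.01 without estradiol replicate 2. PSAN (AT5G64040), a lumenal subunit near the plastocyanin binding site, gave 1939, 1677 and 2135 with estradiol and 2299, 1922 and 2173 in mock. The ranges overlapped, with estradiol replicate 2 again the lowest, and the difference was -0.15 ± 0.13 (limma adjusted p = 0.780), or -0.06 without that array.

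The cyclic routes back to plastoquinone were represented by 4 genes. PGRL1B (AT4G11960), a thylakoid membrane partner of PGR5, had 134, 65.1 and 115 on the estradiol arrays, against 139, 128 and 108 on the mock arrays. Apart from the low value on estradiol replicate 2 the groups overlapped. The log2 difference of -0.27 ± 0.23 (SE, limma adjusted p = 0.788) became -0.006 without that array. The differences of the NDH subunits had mixed signs. NdhN (AT5G58260), a subunit of the stromal arm, gave 282, 293 and 309 with estradiol and 261, 244 and 271 in mock. All estradiol values were above all mock values, and the difference of 0.18 ± 0.10 was the most positive of the 16 genes (limma adjusted p = 0.661). NdhL (AT1G70760), a membrane-anchored subunit, gave 259, 278 and 196 with estradiol and 245, 328 and 309 in mock (-0.26 ± 0.17, limma adjusted p = 0.718). Mock replicate 1 lay below estradiol replicates 1 and 2, so the groups overlapped, and without estradiol replicate 3 the difference was -0.12. NdhS (AT4G23890), which forms the ferredoxin-binding site of the complex, gave 533, 480 and 407 with estradiol and 436, 507 and 734 in mock. The high mock replicate 3 set its difference of -0.21 ± 0.20 (limma adjusted p = 0.817), which was 0.001 without that array.

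RCA (AT2G39730) encodes Rubisco activase, an ATPase that removes inhibitory sugar phosphates from Rubisco. It gave 4493, 3720 and 5258 on the estradiol arrays, against 5879, 5106 and 4390 on the mock arrays. The ranges overlapped. Its difference was -0.19 ± 0.17 (limma adjusted p = 0.787), and -0.07 without estradiol replicate 2, where it was lowest.

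FDH, FD and STN1, which share only a prefix with the rest, did not pass either. FDH gave 1980, 2111 and 1403 with estradiol and 2437, 2110 and 1452 in mock, with replicate 3 the lowest array in both groups and a difference of -0.12 ± 0.23 (limma adjusted p = 0.928). FD lay between 8.20 and 17.6 with estradiol and between 9.33 and 16.3 in mock (difference 0.007), and STN1 between 8.66 and 14.3 with estradiol and between 11.0 and 14.9 in mock (-0.11). Both of these probe sets were near or below the pseudocount of 16, so their log2 differences are compressed, and whether they exceed background is not known here.

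The spread between replicates was uneven across the genes. The SD of log2 values within groups was 0.067 for PSBY and for NdhN and 0.09 for LHCB4.2, and it was 0.36 for PSAE-1 and 0.35 for PGRL1B. The median over the 16 genes was 0.196, close to the 0.188 over all tested probe sets. Estradiol replicate 2 was the lowest of the 6 arrays for 6 of the 13 photosynthesis genes, estradiol replicate 3 for 4, and mock replicate 3 for 0. Over all tested probe sets these arrays were the lowest for 18.9%, 22.7% and 15.1%. Among tested probe sets with a mean intensity above 1000, they were the lowest for 33.1%, 18.2% and 8.81%. The median deviation of the 13 genes from their own means was -0.04, -0.16 and 0.03 on estradiol replicates 1, 2 and 3 and 0.11, 0.07 and 0.13 on mock replicates 1, 2 and 3. By this measure all 3 mock arrays lay above all 3 estradiol arrays. The same order held, with smaller gaps, over all tested probe sets. There the median deviations were -0.01, -0.02 and -0.009 on the estradiol arrays, against -0.001, 0.03 and -0.005 on the mock arrays. That order did not hold over tested probe sets with a mean intensity above 1000, where estradiol replicate 3 lay above every mock array. Their median deviations were -0.048, -0.10 and 0.069 on the estradiol arrays, against 0.005, 0.041 and 0.046 on the mock arrays.

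**Figure D3:**
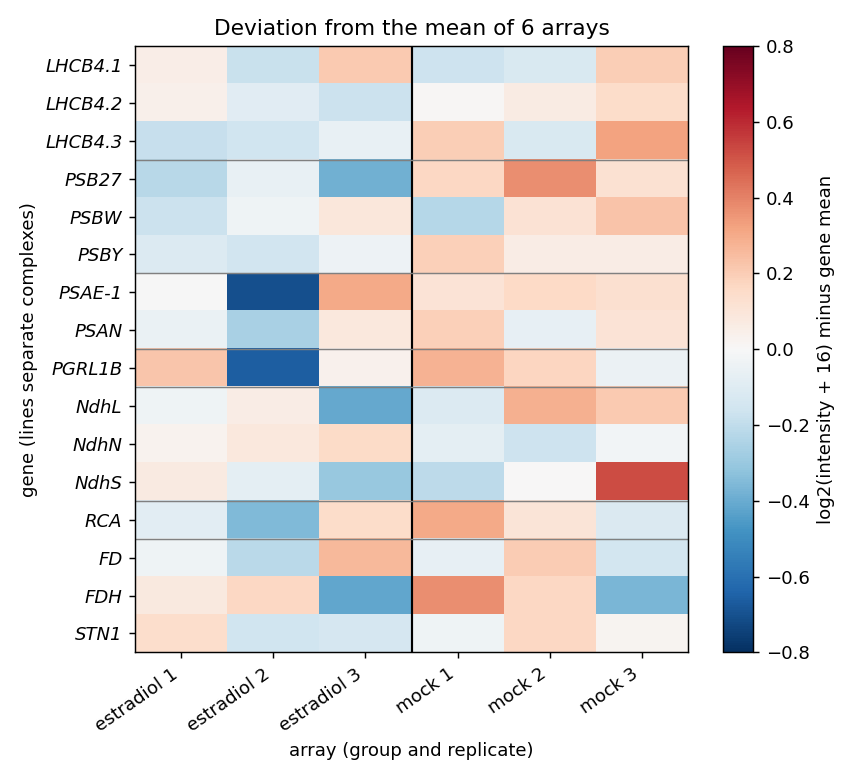
Deviation of log2(intensity + 16) from each gene's mean over 6 arrays, shown by colour (red above, blue below) for the 16 genes (rows, lines between complexes) on the 3 estradiol arrays, left of the black line, and the 3 mock arrays. PSAE-1 and PGRL1B are darkest on estradiol replicate 2, with intensities of 1934 and 65.1, and NdhS on mock replicate 3, with 734.

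Bright probe sets as a class lay low on estradiol replicate 2. Of the 13 photosynthesis genes, 8 exceeded an intensity of 1000 on all 6 arrays and 7 of these had a negative difference, as did 4 of the other 5. Over all 556 tested probe sets with a mean above 1000, 65.1% had a negative difference and the median was -0.07, and estradiol replicate 2 was the lowest array for 184 of them. Quantile normalization, which gives each array the same distribution of values, left the median of the 16 genes at -0.05, against -0.17 on the deposited scale, and that of the 13 photosynthesis genes at -0.10, against -0.20. Without estradiol replicate 2 these medians were -0.07 and -0.08. After quantile normalization the difference of PSB27 was -0.31, of PSBY -0.06 and of NdhN 0.15. Those of PGRL1B (-0.27), NdhL (-0.28) and NdhS (-0.22) were no nearer to 0 than on the deposited scale.

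**Figure D4:**
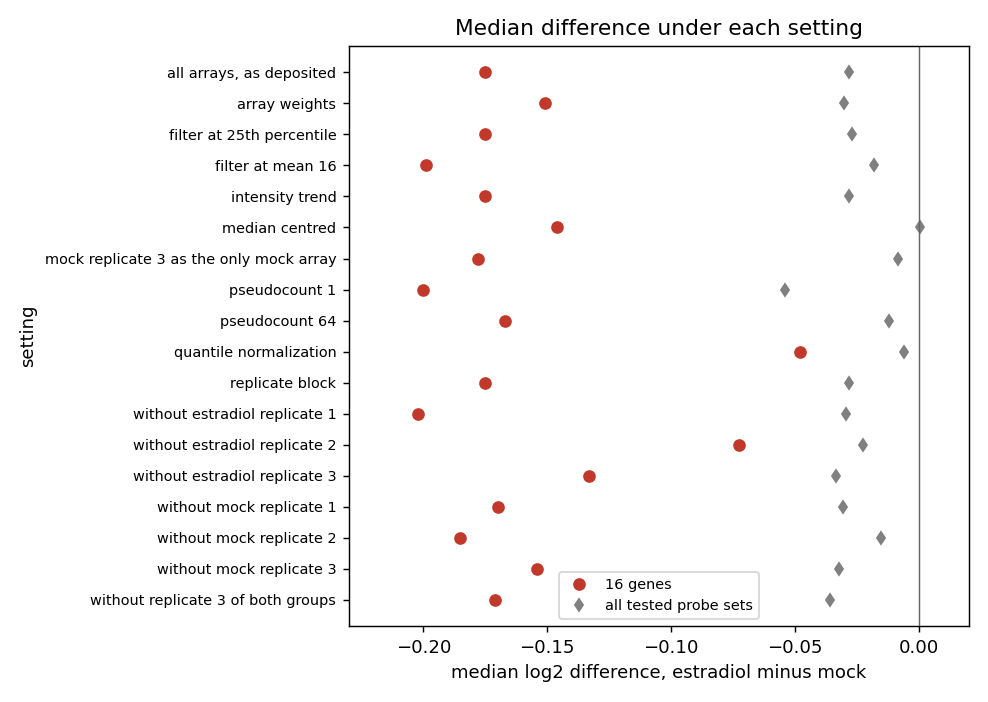
Median log2 difference, estradiol minus mock (x axis), of the 16 genes (circles) and of all tested probe sets (diamonds) under each way of processing (y axis); the filter at a mean of 16 keeps 14 of the 16. The medians of these genes lie between -0.20 and -0.05, nearest to 0 with quantile normalization (-0.05) and without estradiol replicate 2 (-0.07).

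Other genes of the chloroplast, listed by function and measured where a probe set carries their name alone, gave no call either. Of 27 genes of chlorophyll synthesis 9 were measured, with a median difference of -0.11. At limma's adjusted threshold 0 were higher (background 0.114%) and 0 lower (background 0%). At an unadjusted limma p under 0.05, 0 were higher (background 3.96%) and 0 lower (background 4.58%). With so few genes, 0 calls is near the background. In this list HEME2, a uroporphyrinogen decarboxylase gene, gave 402, 388 and 318 with estradiol and 405, 446 and 438 in mock (-0.22, limma adjusted p = 0.665). Its values were lower on every estradiol array than on any mock array. This held for 1 of the 9 genes, where 7.74% of all tested probe sets did so. CHLM, a magnesium-protoporphyrin methyltransferase gene, gave 1168, 1185 and 1222 with estradiol and 1255, 1210 and 1286 in mock, and HEMB1, an early enzyme of the pathway, had a positive difference of 0.17.

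Of 18 Calvin cycle genes 2 were measured, and 0 passed in either direction (background 0.114% higher and 0% lower). SBPASE, sedoheptulose bisphosphatase, gave 1710, 1637 and 1825 with estradiol and 1948, 1834 and 2016 in mock (-0.16, limma adjusted p = 0.688). The 3 estradiol values all lay below the mock values, as they did for 7.74% of all tested probe sets. PRK, phosphoribulokinase, gave 2367, 2660 and 2338 with estradiol and 2763, 2633 and 2871 in mock (-0.17, limma adjusted p = 0.692). Its estradiol replicate 2 exceeded mock replicate 2, so the groups overlapped.

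Of 4 nuclear genes of the chloroplast ATP synthase, ATPC1 (-0.11) and ATPC2 (-0.05), which encode the gamma subunit, were measured and did not pass. Among 31 genes of thylakoid assembly and regulation, 6 were measured besides the members, with a median of -0.01 and 3 negative. Of these 6, 0 were called in either direction (background 0.114% higher and 0% lower). The CURT1 proteins bend the thylakoid membrane at the grana margins, and their genes AT4G01150 (CURT1A), AT1G52220 (CURT1C) and AT4G38100 (CURT1D) had differences of 0.01, 0.02 and 0.03. Of the listed regulators, HYH, a bZIP relative of HY5, was measured at 197, 222 and 203 with estradiol and 227, 260 and 219 in mock (-0.17, limma adjusted p = 0.714). GI stood alone for the clock, with 52.2, 48.7 and 94.1 with estradiol and 85.8, 68.9 and 95.7 in mock (-0.33, limma adjusted p = 0.728), and its replicate 3 was the highest array in both groups.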

How the data were processed

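Per the file headers and values, the deposited numbers are linear intensities, 1 for each probe set on each array, scaled by the authors to a common trimmed mean. The tools GCOS and affy are named per the submitters' processing notes; how probes were summarised is not stated there. No detection calls were used. Of 22810 probe sets, 64 controls were left out and 22746 were tested without a filter. Names came from the platform annotation and the TAIR10.1 gene table, which gave the same symbol for all 16 members, while 8730 probe sets have no gene listed. Coordinates are left out because the array annotation names no genome build, and no sequences were used.

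Log2(intensity + 16) was compared between groups in R 4.3.3 with limma 3.58.1 (lmFit and eBayes, two-sided, no covariate). P-values were adjusted by Benjamini-Hochberg over the 22746 probe sets. The script was tested on simulated data whose planted differences were far larger than those of the members. That test does not show how well differences of the members' size are recovered. The number of arrays, 3 per group, limits the precision, and p-values measure the spread between samples labelled as biological replicates. The members, lists and tests were chosen with earlier results of these data known. All members are named, because no complex holds more than 3. Replicate numbers were not used to pair the arrays, because the labels do not state that they mark shared batches. The correlations of deviations between arrays of the same replicate number were 0.091, 0.11 and 0.33, all positive. Whether arrays of the same number share a batch was not tested. Alternatives changed the pairing, scaling, pseudocount, filter, variance model, weights and arrays used. Plots used matplotlib 3.10.9 (Python 3.11.15).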

Additional observations from a re-analysis of the deposited data

How the results depend on the processing

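The count of members called stayed at 0 in both directions under all 17 other fits, and the lowest adjusted p of any member was 0.26 (PSB27, array weights). The number of negative differences lay between 12 and 14, and that of intervals within 1 log2 unit between 12 (mock replicate 3 as the only mock array, where the lone array is assumed to vary like the others) and 16; both counts were added after the data were seen. Keeping 1 probe set per locus changed nothing, since each locus has 1. A filter at a mean intensity of 16 left out FD and STN1. Across all probe sets the number called lower was 0 on the deposited scale and 1 with array weights. It was also 1 under this filter and under the filter at the 25th percentile. With so few calls over all probe sets, a count of 0 lower among the members says little.

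The median difference of the members was -0.175 and became -0.0481 with quantile normalization; when each array was left out it ranged from -0.202 (without estradiol replicate 1) to -0.0726 (without estradiol replicate 2). With the replicate block it was -0.175, and no member was called. In a balanced design the block cannot change a difference, so the equal median is no support. All differences that changed sign were uncalled. When each array was left out they ranged from -0.0301 to 0.175 for LHCB4.1, -0.487 to 0.0143 for PSAE-1, -0.213 to 0.0185 for PSBW, -0.365 to 0.00123 for NdhS, -0.122 to 0.115 for FD and -0.328 to 0.0644 for FDH. Those that kept their sign ranged from -0.204 to -0.0972 for LHCB4.2, -0.391 to -0.17 for LHCB4.3, -0.522 to -0.36 for PSB27, -0.235 to -0.16 for PSBY, -0.235 to -0.0627 for PSAN, -0.448 to -0.00586 for PGRL1B, -0.376 to -0.116 for NdhL, 0.138 to 0.209 for NdhN, -0.315 to -0.0661 for RCA and -0.202 to -0.0489 for STN1. Against mock replicate 3 alone LHCB4.1 was at -0.169, RCA at 0.0181 and FDH at 0.31; without replicate 3 of both groups NdhS was at 0.102 and FD at -0.194; with array weights FD was at -0.0637. The cause was not tested. Across all probe sets the number called higher was 26 and became 91 with array weights, 96 and 94 under the 2 filters on low intensity, 43 after median centring, 11 with a pseudocount of 64, 17 with the replicate block, and 0 with a pseudocount of 1, against mock replicate 3 alone and without replicate 3 of both groups; it ranged from 0 to 57 when each array was left out.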
